A study of Mus musculus with 2 samples.

Results

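The genes described here encode the subunits of the oxidative phosphorylation system, the 4 respiratory complexes and the ATP synthase (complex V) of the mitochondrial inner membrane. They were chosen by symbol: every gene whose name starts with mt-, and the nuclear Nduf, Sdh, Uqcr, Cox4 to Cox8 and Atp5 series, without Ndufa4l2 and pseudogenes. That gave 96 of the 32285 listed genes, 13 of them encoded in mitochondrial DNA and 83 in the nucleus. Their transcripts were counted in E14 mouse embryonic stem cells (129/Ola background) kept in serum medium with leukaemia inhibitory factor. The control cells received a control small interfering RNA (siRNA), and the cells named sonKD received siRNA against Son, a protein of nuclear speckles with a role in RNA splicing. Both were transfected with Lipofectamine2000, harvested 24 hours later, frozen, thawed, sorted on the viability dye 7-AAD and barcoded with 10x Genomics Single Cell 3' v3 chemistry. Each group was 1 library, so what the knockdown did and how the 2 preparations differ cannot be told apart, and no test or p-value is given.

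Complexes I and II pass electrons from NADH and succinate to ubiquinone, complex III passes them to cytochrome c, and complex IV passes them to oxygen. Complexes I, III and IV pump protons, and complex V lets them back through its membrane ring to make ATP. Mitochondrial DNA supplies hydrophobic core proteins of complexes I, III, IV and V from long transcripts that are cut into messages. Nuclear genes supply other core proteins, the many small accessory subunits and all of complex II. Mouse embryonic stem cells in serum use both glycolysis and respiration.

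Cells were barcodes with at least 2500 unique molecular identifiers (UMIs, each marking 1 captured molecule), at least 1000 genes and at most 10% of UMIs from mt- genes. That left 4978 control cells with a median of 7737.5 UMIs and 2731 sonKD cells with a median of 11612, or 40902904 and 32032551 UMIs in all, and 2 barcodes occurred in both sets. Levels are CPM, the UMIs of a gene over the cells of a library scaled to a fixed library total, and ratios are log2 of sonKD over control. CPM is a share of the library, so it does not give the amount of RNA per cell. Intervals in parentheses are at 95% and cover counting error only. Son itself had 169 CPM in control and 106 CPM in sonKD, a log2 ratio of -0.67 (-0.73 to -0.61). All 10 stem cell markers checked averaged 10 CPM or more, whereas 0 of 6 markers reached that level for primitive endoderm, for trophectoderm, for mesoderm and for fibroblasts, and 2 of 6 did for neuroectoderm. Over all 8063 genes that averaged 10 CPM or more, the median log2 ratio was -0.12 and the 5th and 95th percentiles were -0.40 and 0.25.

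Transcripts of both genomes took a larger share of UMIs in sonKD. The 13 mitochondrially encoded transcripts together went from 3.82% to 4.19% of UMIs, a log2 ratio of 0.133 (0.130 to 0.136). That ratio depended on the limit on mt- UMIs, and was 0.32 with a limit of 25%. The nuclear-encoded members together went from 2.65% to 3.05%, a log2 ratio of 0.200 (0.196 to 0.204). Of the 83 nuclear members, 78 averaged 10 CPM or more, and their median ratio was 0.23, with 53 above 0 and 25 below. Past a log2 ratio of 0.32 in either direction, the fold used for counts here, 33 of the 78 were higher and 2 were lower, which are 42.3% and 2.56%. Over all 8063 genes, 3.50% were past that fold on the higher side and 10.2% on the lower side. The 33 include Cox7a1, which was under 10 CPM in control. Of the 76 nuclear members that averaged 50 CPM or more, 31 were higher and 2 lower, with 5.27% and 7.05% of all genes at that level. TMM scaling, which sets the libraries level over most genes, added 0.09 to each log2 ratio. With it those background shares were 5.57% and 4.59%, and 39 nuclear members were higher and 2 lower. Among the 13 mitochondrially encoded genes, 5 were higher past the fold and 0 were lower.

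The subunits of a complex did not share a ratio. The nuclear median was 0.19 for complex I (35 genes), -0.05 for complex II (4), 0.39 for complex III (8), 0.38 for complex IV (14) and 0.19 for complex V (17). The value for complex II was above 0 under TMM scaling, at 0.04. The value for complex III is without Cyc1, which the symbol rule does not cover. The highest and lowest members lay in the same complexes: in complex I nuclear ratios ran from -0.27 to 0.99, in complex IV from -0.46 to 0.68 and in complex V from -0.53 to 0.65. The members of each complex are described next by their role, and what set their ratios apart was not tested.

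**Figure D1:**
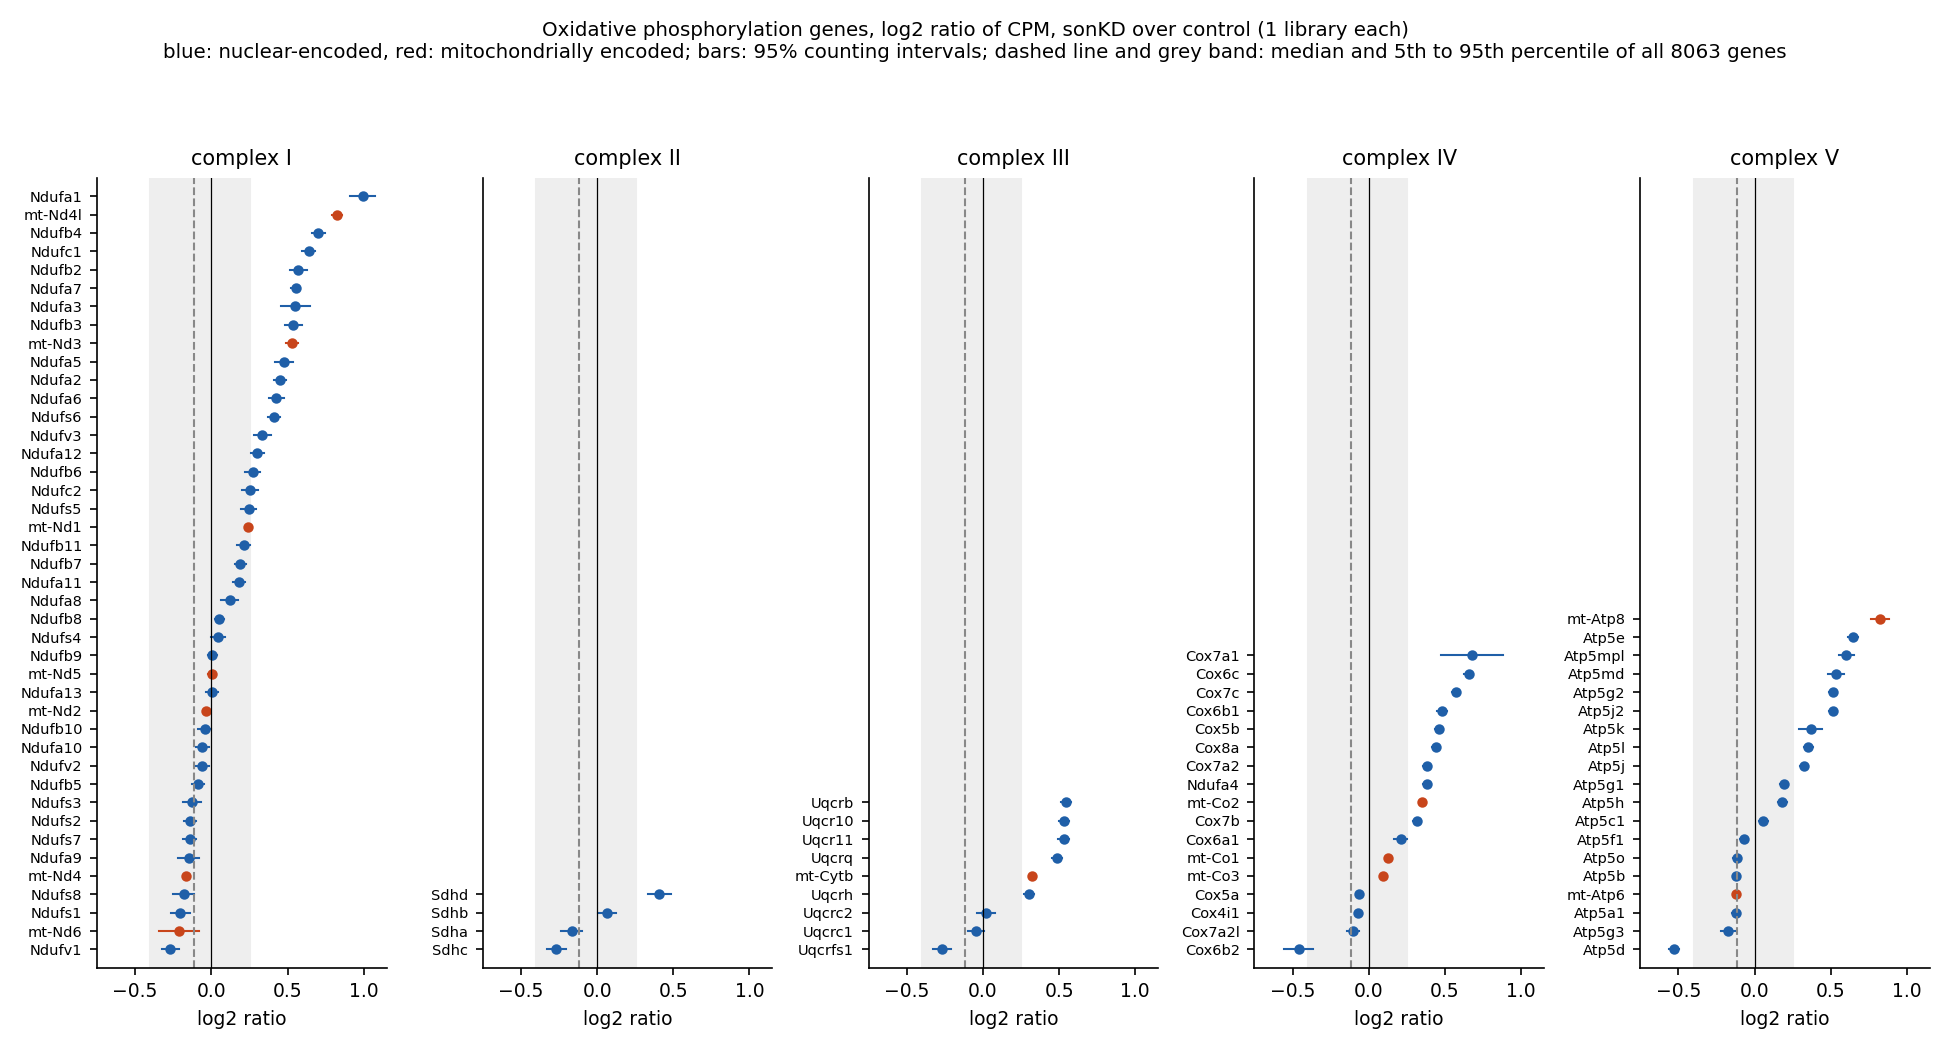
Log2 ratio of CPM, sonKD over control, for each of the 91 members that averaged 10 CPM or more, in 1 panel per complex (blue nuclear, red mitochondrially encoded; bars are 95% counting intervals; dashed line and grey band are the median and the 5th to 95th percentile of all 8063 genes). Complex I runs from Ndufv1 at -0.27 to Ndufa1 at 0.99, and the small subunits of complex III lie to the right of the 3 large ones shown.

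In complex I, the 7 nuclear core subunits, which carry the flavin and the iron-sulphur clusters of the electron path, all had ratios below 0. Their median was -0.14, from -0.27 to -0.06, near the median of -0.12 for all genes, of which 6039 of 8063 were below 0. Ndufv1, the flavin-binding subunit that takes electrons from NADH, had 154 CPM (151 to 158) in control and 128 CPM (124 to 132) in sonKD, a ratio of -0.27 (-0.33 to -0.21). Ndufs1, the largest iron-sulphur subunit, had 135 and 117 CPM, and Ndufs8, which binds clusters near the quinone site, had 104 and 91.8 CPM. The ratios of Ndufs1 and Ndufs8 were -0.20 (-0.26 to -0.14) and -0.18 (-0.25 to -0.11), with intervals that cover counting error only. Ndufv2, named after its value was seen, was the core subunit closest to 0, and its ratio turned from -0.06 to 0.03 under TMM scaling.

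The 28 supernumerary subunits of complex I, which surround the core and are needed for its assembly and stability, had a median ratio of 0.26. Of these, 24 were above 0 and 4 below, and 12 were higher past the fold (42.9%, against 3.50% of all genes). Ndufa1 (ENSMUSG00000016427; chromosome X, 37187588 to 37191163, GRCm38), a short membrane subunit, had the highest ratio of all nuclear members. It went from 50.3 CPM (48.1 to 52.5) to 100 CPM (96.7 to 104), a ratio of 0.99 (0.91 to 1.07). Ndufb4 went from 187 to 304 CPM and Ndufc1 from 189 to 294 CPM, ratios of 0.70 and 0.64, and both belong to the membrane arm. The nuclear members of the complex with the most UMIs were Ndufa7, at 422 and 620 CPM, and Ndufb8, at 508 and 526 CPM, ratios of 0.55 and 0.05. The 9 supernumerary subunits with a coding sequence of at least 500 nt had a median of 0.01, from -0.15 to 0.33.

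Complex II has no mitochondrially encoded subunit, and its 4 genes went different ways. The flavoprotein gene Sdha had 101 CPM in control and 89.8 CPM in sonKD, a ratio of -0.17 (-0.23 to -0.10). The iron-sulphur subunit gene Sdhb had 131 and 137 CPM, a ratio of 0.06 (0.01 to 0.12). The membrane anchors that bind haem and quinone lay farthest apart: Sdhc had 132 and 109 CPM, a ratio of -0.27 (-0.33 to -0.21), and Sdhd had 69.3 and 92.0 CPM, a ratio of 0.41 (0.33 to 0.48). The anchors form a dimer, yet their ratios were of opposite sign.

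In complex III, the large and the small nuclear members separated without overlap. Cyc1, named after its value was seen, encodes cytochrome c1 of this complex but falls outside the symbol rule. It had 290 and 252 CPM, a ratio of -0.20 (-0.24 to -0.16), and is counted below with the electron carriers. The Rieske iron-sulphur protein gene Uqcrfs1 had 149 CPM in control and 123 CPM in sonKD, a ratio of -0.27 (-0.33 to -0.21). The core proteins Uqcrc1 and Uqcrc2 had ratios of -0.05 (-0.10 to 0.00) and 0.02 (-0.04 to 0.08), whose intervals reached 0, and Uqcrc1 was at 0.04 under TMM scaling. The 5 small subunits had ratios from 0.30 to 0.55 with a median of 0.53. Among them, Uqcrb, which lies near the ubiquinone site, had 317 and 462 CPM, Uqcr10 had 343 and 497 CPM, and Uqcr11 had 289 and 418 CPM. The acidic hinge subunit gene Uqcrh was the lowest of the small ones, at 415 and 512 CPM.

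In complex IV, whose core is mitochondrially encoded, 10 of the 14 nuclear members at 10 CPM were above 0. Of the 14, 8 were higher past the fold (57.1%, against 3.50% of all genes). The 2 nuclear members with the most UMIs, Cox4i1 and Cox5a, were not among those above 0. Cox4i1, the regulatory subunit that binds ATP, had 2305 CPM in control and 2192 CPM in sonKD, a ratio of -0.07 that turned to 0.02 under TMM scaling. Cox5a had 1358 and 1302 CPM, a ratio of -0.06 that turned to 0.03. The 3 highest ratios belonged to short membrane subunits: Cox7a1 at 0.68, Cox6c at 0.66 (415 and 654 CPM) and Cox7c at 0.57 (613 and 911 CPM). Cox7a1, at 8.85 and 14.2 CPM, reached the 10 CPM mean only through its sonKD value, and is counted among the 8. For members of at least 50 CPM, which leaves it out, the complex IV median was still 0.38. Ndufa4, once listed with complex I and now placed in complex IV, had 607 and 790 CPM, a ratio of 0.38 (0.36 to 0.41), close to the other small subunits of complex IV.

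Several complex IV subunits have a widespread isoform and a tissue-restricted one, and the 2 kinds are given here side by side. Cox6b1 had 385 CPM in control and 537 CPM in sonKD, a ratio of 0.48 (0.45 to 0.51). Its testis isoform Cox6b2 had 58.8 and 42.8 CPM, a ratio of -0.46 (-0.56 to -0.36), so the pair had opposite signs. The heart and muscle isoform Cox7a1 had 8.85 and 14.2 CPM, just above the 10 CPM mean, against 491 and 639 CPM for Cox7a2 (ratio 0.38). Cox7a2l, a related protein that joins complexes III and IV into supercomplexes, had 298 and 278 CPM, a ratio of -0.10 (-0.14 to -0.06). Cox6a1 had 210 and 242 CPM, whereas its muscle isoform Cox6a2 had 4 UMIs in control and 5 in sonKD. Cox8a had 856 and 1161 CPM, whereas Cox8b had 0 UMIs in both libraries and Cox8c had 18 and 11. The lung isoform Cox4i2 had 5.92 and 4.53 CPM and the testis isoform Cox7b2 had 1.93 and 1.81 CPM. Cox4i2, Cox6a2, Cox7b2, Cox8b and Cox8c are the 5 members under 10 CPM. They enter no median or count, except where values without a filter are given.

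In complex V, the F1 head that makes ATP held both the lowest and the highest ratio of the nuclear complex V members. Atp5a1 and Atp5b, the alpha and beta subunits of the catalytic head, had 651 and 913 CPM in control and 597 and 839 CPM in sonKD, and both ratios were -0.12. Atp5d, the delta subunit of the central stalk (ENSMUSG00000003072; chromosome 10, 80138632 to 80145818, GRCm38), had the lowest ratio of all members, from 486 CPM (479 to 493) to 337 CPM (331 to 343), or -0.53 (-0.56 to -0.50). Its neighbour in the stalk, the epsilon subunit Atp5e, had the highest ratio of the nuclear complex V members, from 304 to 475 CPM, or 0.65 (0.61 to 0.68). Atp5c1, the gamma subunit, named after its value was seen, was at 0.06. The 5 short membrane subunits, which help to dimerise the enzyme, were all past the fold on the higher side, against 3.50% of all genes. Their median was 0.51. Of these 5, Atp5mpl had 158 and 240 CPM and Atp5md had 134 and 194 CPM. The 4 peripheral stalk subunits, which hold the head still, had a median of 0.06, from -0.11 to 0.33.

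The proton-carrying c ring is built from copies of 1 small protein that 3 nuclear genes encode, so these genes were compared directly. Their coding sequences match at 85.1% of the last 228 bases for Atp5g1 and Atp5g2, 79.8% for Atp5g1 and Atp5g3 and 78.5% for Atp5g2 and Atp5g3. The last 90 of these, stop codon included, are shown because they let a reader see how far the genes differ in spite of the shared product. Capitals mark the 24 positions at which the 3 genes do not all have the same base (GRCm38, coding strand).
Atp5g1: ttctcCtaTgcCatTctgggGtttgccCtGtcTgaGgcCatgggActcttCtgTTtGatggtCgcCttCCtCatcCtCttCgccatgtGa
Atp5g2: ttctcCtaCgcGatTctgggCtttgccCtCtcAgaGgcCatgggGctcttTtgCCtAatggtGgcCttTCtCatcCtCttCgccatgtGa
Atp5g3: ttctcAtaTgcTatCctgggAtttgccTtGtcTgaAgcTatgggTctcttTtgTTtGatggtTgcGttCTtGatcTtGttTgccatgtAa
Atp5g1 had 725 CPM in control and 829 CPM in sonKD, a ratio of 0.19 (0.17 to 0.22). Atp5g2 had 473 and 676 CPM, a ratio of 0.51 (0.49 to 0.54). Atp5g3 had 223 and 197 CPM, a ratio of -0.18 (-0.22 to -0.13). For 100 UMIs of Atp5g3 there were 212 of Atp5g2 in control and 343 in sonKD, a log2 difference of 0.69 (0.64 to 0.74). In droplets of 100 to 500 UMIs that difference was 0.66 (0.60 to 0.73). Of the last 300 bases, Atp5g1 shares 33.3% with a gene listed in the files, Atp5g2 shares 98.5% with annotated transcripts of which 0% belong to listed genes, and Atp5g3 shares 0%. The counts of Atp5g1 and Atp5g2 may depend on how such reads were assigned, which was not tested.

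The 13 mitochondrially encoded transcripts, which arise from long precursors of both strands, ranged in ratio from -0.21 to 0.82. In complex I, the short mt-Nd4l and mt-Nd3 were highest. mt-Nd4l had 364 CPM (358 to 370) in control and 644 CPM (635 to 653) in sonKD, a ratio of 0.82, and mt-Nd3 had 219 and 317 CPM, a ratio of 0.53. mt-Nd1 had 2207 and 2607 CPM, a ratio of 0.24. mt-Nd5 was level at 720 and 723 CPM, and mt-Nd2 had 2021 and 1974 CPM, a ratio of -0.03 that was 0.06 under TMM scaling. mt-Nd4, at 1909 and 1703 CPM, and mt-Nd6, at 28.7 and 24.8 CPM, had ratios of -0.16 and -0.21, which were above 0, at 0.012 and 0.061, with a limit of 25% mt- UMIs. mt-Nd6 alone of these genes lies on the - strand. Summed over its 7 genes, the mitochondrial part of complex I had a ratio of 0.10.

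mt-Cytb, the haem protein at the centre of complex III, had 3563 CPM in control and 4460 CPM in sonKD, a ratio of 0.32. The 3 catalytic core genes of complex IV had a summed ratio of 0.18: mt-Co2, which takes electrons from cytochrome c, had 6099 and 7759 CPM (ratio 0.35), mt-Co1, which holds the oxygen-reducing centre, had 5675 and 6204 CPM (0.13), and mt-Co3 had 8541 and 9103 CPM (0.09). In complex V, mt-Atp8 had 101 and 179 CPM, a ratio of 0.82 (0.76 to 0.88). mt-Atp6, the channel subunit beside the c ring, had 6798 and 6243 CPM, a ratio of -0.12 (-0.13 to -0.11), or 0.088 with a limit of 25% mt- UMIs.

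**Figure D2:**
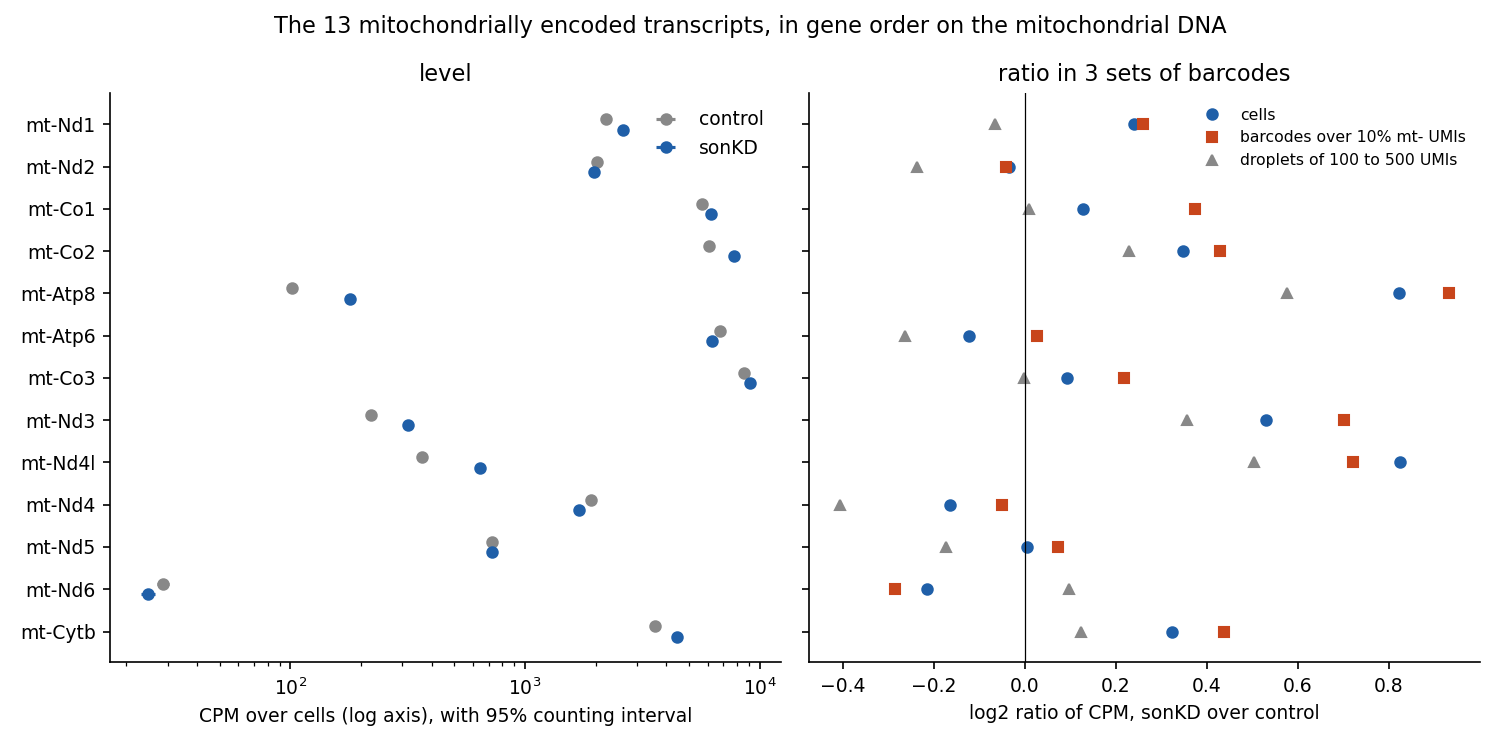
The 13 mitochondrially encoded transcripts in gene order, with CPM over cells on a log axis (left; grey control, blue sonKD, with 95% counting intervals) and the log2 ratio in cells, in barcodes over 10% mt- UMIs and in droplets of 100 to 500 UMIs (right). mt-Atp8, mt-Nd3 and mt-Nd4l have the highest ratios in each of the 3 sets of barcodes.

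mt-Atp8 and mt-Atp6 lie on 1 message with overlapping reading frames, and so do mt-Nd4l and mt-Nd4. The overlaps are shown because the genes of each pair share 1 RNA, yet had ratios that lay far apart. With the 10% limit on mt- UMIs the signs were opposite, and with a limit of 25% or none all 4 genes were above 0. Capitals mark the bases that belong to both genes, 43 in the first pair (GRCm38, chrM:7907-7989, + strand) and 7 in the second (chrM:10147-10193, + strand).
mt-Atp8/mt-Atp6: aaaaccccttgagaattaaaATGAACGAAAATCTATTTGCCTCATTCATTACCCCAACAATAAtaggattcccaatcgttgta
mt-Nd4l/mt-Nd4: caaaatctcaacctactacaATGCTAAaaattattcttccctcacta
For 100 UMIs of mt-Atp6 there were 1.49 of mt-Atp8 in control and 2.86 in sonKD, a log2 difference of 0.94 (0.89 to 1.00). For 100 UMIs of mt-Nd4 there were 19.0 of mt-Nd4l in control and 37.8 in sonKD, a log2 difference of 0.99 (0.96 to 1.02). In both messages the upstream gene gained on its partner. A 3' assay reads mostly near the end of a message, so the UMIs of an upstream gene do not count whole messages. The differences were 0.84 and 0.91 in droplets of 100 to 500 UMIs, and 0.91 and 0.77 in barcodes over 10% mt- UMIs. After thinning each cell to 2500 UMIs they were 0.83 and 0.98. For mt-Co1, mt-Co2, mt-Co3, mt-Atp6, mt-Nd3 and mt-Nd4l, 98.9% to 100% of the last 300 bases also occur in another annotated transcript, none of which is a gene listed in the files.

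Of 5 gene properties compared, the length of the coding sequence ordered the nuclear members most closely. Over the 78 nuclear members, Spearman's rank correlation between coding length and ratio was -0.77, and over the 13 mitochondrially encoded genes it was -0.46. Across 7790 other protein-coding genes it was -0.32. These are descriptions across genes of the same 2 libraries, and genes are not independent replicates. The rank correlation with ratio over the nuclear members was -0.56 for transcript length, -0.56 for exon number, -0.18 for GC content and 0.20 for median intron length.

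By class of coding length, the nuclear medians were lower in each successive class up to 900 nt. The 22 members of at most 300 nt had a median ratio of 0.52, those of 301 to 400 nt 0.42, and those of 401 to 500 nt 0.19. From 501 to 600 nt the median was -0.04, from 601 to 900 nt -0.11, from 901 to 1500 nt -0.06 and above 1500 nt -0.14. Other genes had a median of 0.14 at up to 300 nt, 0.03 at 301 to 400 nt and -0.07 at 501 to 600 nt, and -0.16 above 1500 nt. Short members thus lay above other short genes, and long members lay close to other long genes. Among genes of at least 100 CPM and at most 300 nt, the median was 0.51 for 17 nuclear members and 0.15 for 65 others that encode no cytosolic ribosomal protein. Cytosolic ribosomal protein genes of that length had a median of 0.56, over 11 genes.

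**Figure D3:**
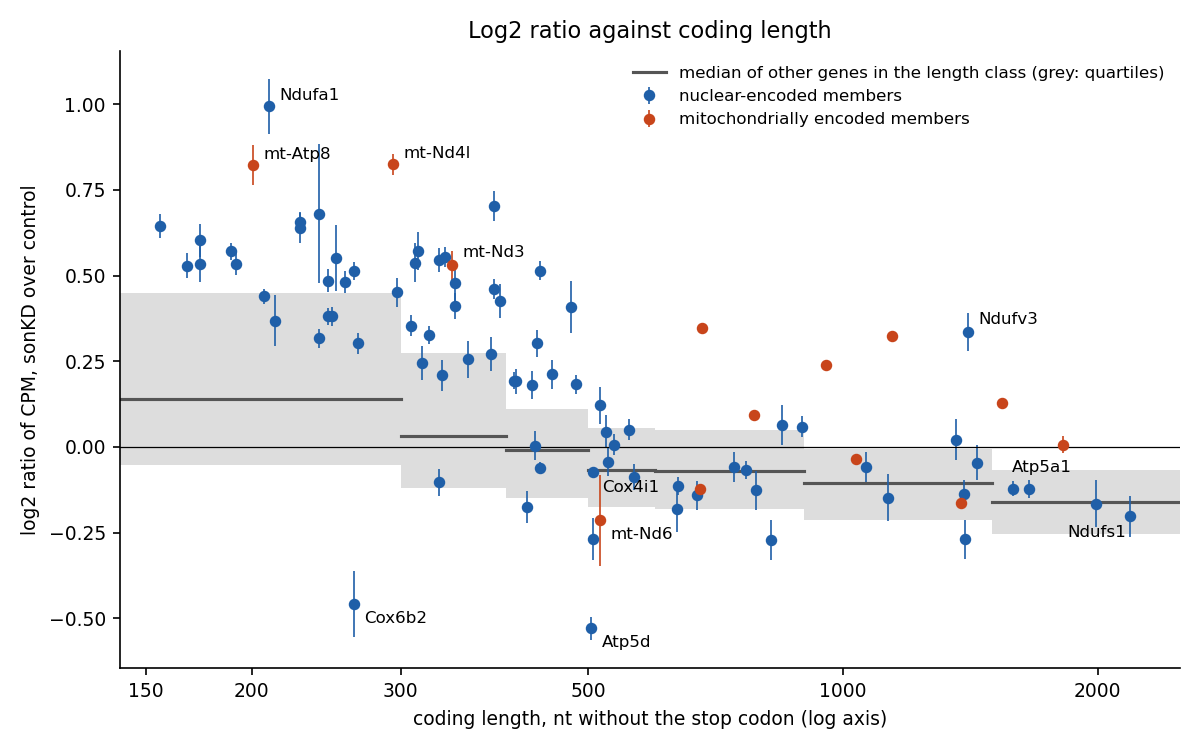
Log2 ratio against coding length (log axis) for the 91 members at 10 CPM (blue nuclear, red mitochondrially encoded, bars 95% counting intervals), with the median and quartiles of all other genes per length class in grey. Nuclear members of at most 300 nt have a median of 0.52 against 0.14 for other genes, and Cox6b2 and Atp5d lie far below members of like length.

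The order by length ran across roles. The F1 subunit Atp5e is among the shortest members and the F1 subunits Atp5a1 and Atp5b among the longest, and the core subunits of complex I have coding lengths from 636 to 2181 nt. Exceptions lay on both sides. Cox6b2 (264 nt) and Atp5d (504 nt) were the 2 nuclear members lower past the fold, and Cox7a2l (333 nt) was at -0.10. Ndufv3, named after its value was seen, was the highest of the long members, at 0.33 with 1404 nt. Sequence shared with other genes at the 3' end moved with length too, so members were split by it. The 43 tested nuclear members that share none had a median ratio of 0.01, with 22 above 0 and 21 below, and a median length of 507 nt. The 19 that share at least 20% had a median ratio of 0.35 and a median length of 333 nt. Up to 400 nt, the median was 0.52 for 16 members that share none and 0.46 for 22 that share some. The cause of this order was not tested.

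The distribution over single cells was shifted as a whole in sonKD. The mitochondrially encoded share per cell had a median of 3.65% in control cells against 4.10% in sonKD cells, a difference of 0.45 percentage points. The middle of the cells, from the 25th to the 75th percentile, ran from 2.99% to 4.61% in control and from 3.37% to 5.10% in sonKD, so the libraries overlapped widely. Nuclear members took a median of 2.77% of the non-mitochondrial UMIs of a control cell and 3.19% of those of a sonKD cell. With each cell thinned to 2500 UMIs these medians were 3.64% and 4.12% for the mitochondrial and 2.76% and 3.20% for the nuclear transcripts. Within a library the thinned shares were weakly related across cells, with Pearson's r of -0.19 in control and -0.13 in sonKD, and both come from the same cell's counts.

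**Figure D4:**
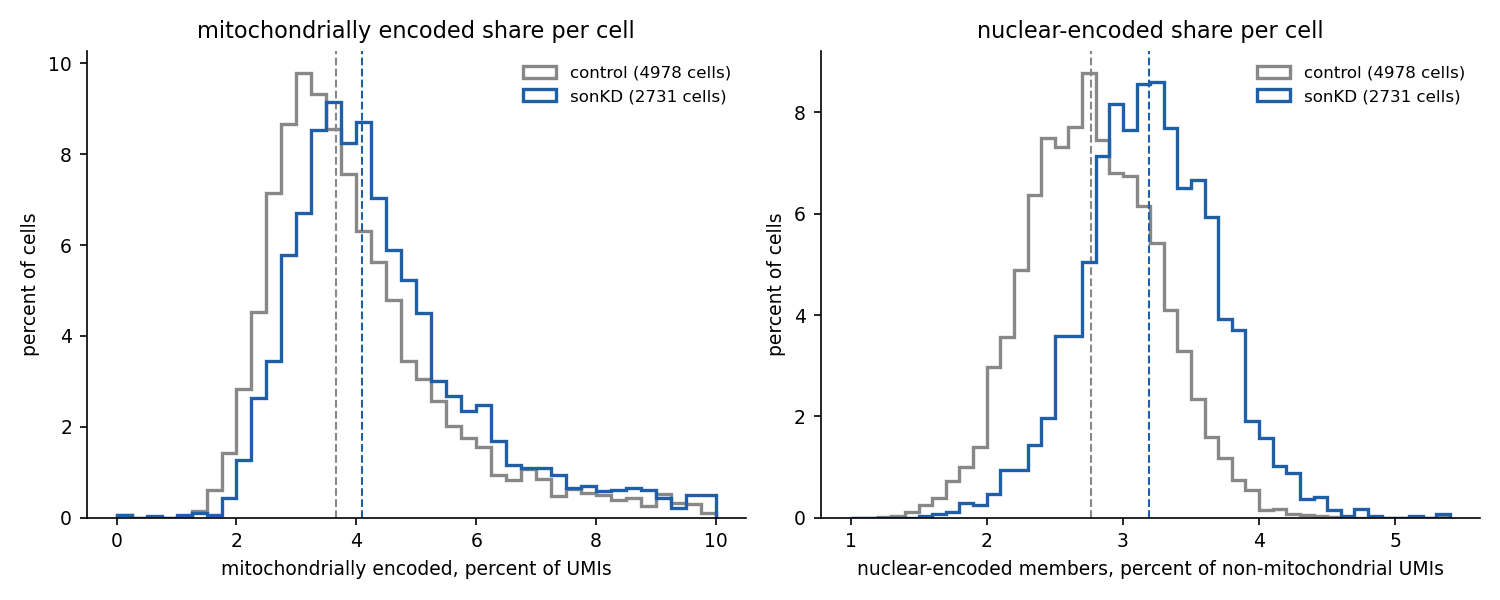
Percent of cells by the mitochondrially encoded share of UMIs (left) and by the share of nuclear-encoded members among non-mitochondrial UMIs (right), for 4978 control cells (grey) and 2731 sonKD cells (blue), with medians as dashed lines. The medians are 3.65% and 4.10% on the left and 2.77% and 3.19% on the right.

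Since the libraries differed in depth and the cell rule limits the mitochondrial share, the nuclear sum was also compared within bins, scaled to non-mitochondrial UMIs. In cells with a mitochondrial share of up to 3%, 3 to 4%, 4 to 6% and 6 to 10%, the summed log2 ratio was 0.17, 0.21, 0.26 and 0.25. In cells of 2500 to 5000, 5000 to 10000, 10000 to 20000 and at least 20000 UMIs it was 0.14, 0.23, 0.28 and 0.09, with 49 control and 114 sonKD cells in the deepest bin. Nuclear members were thus higher in sonKD in each of the 8 bins. The mitochondrial share was lower in deeper cells of both libraries and was higher in sonKD in each depth bin, from 5.78% and 6.80% in the shallowest to 3.30% and 3.85% in the deepest.

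Members lay in a similar order in barcodes outside the cell rule, though single ratios differed. Droplets of 100 to 500 UMIs, taken here to hold mainly free RNA of the same cultures, numbered 59886 in control and 62449 in sonKD. They were chosen by UMIs alone, and what they hold was not tested. Mitochondrially encoded transcripts took 0.98% and 0.96% of their UMIs and nuclear members took 4.39% and 4.93%. Over the 78 nuclear members, the rank correlation between the ratio in cells and in droplets was 0.95, and over the 13 mitochondrial genes it was 0.82. The medians in droplets were 0.17 for nuclear and 0.01 for mitochondrial members, against -0.24 for all genes. Cox6b2 was at -0.81 there and mt-Nd4 at -0.41, both lower than in cells. mt-Nd6 was at 0.10, with only 8.22 CPM in control droplets and 8.80 CPM in sonKD droplets, and its interval there was not computed. The free RNA in cells' own counts was not removed, and its part in the ratios was not tested.

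Barcodes that met the depth limits but had over 10% mt- UMIs made up 625 of 5603 in control, or 11.2% (10.3 to 12.01), and 1056 of 3787 in sonKD, or 27.9% (26.5 to 29.3). In these barcodes the share of nuclear members was 2.16% in the control library and 2.70% in sonKD, and their median ratio was 0.35. The median of the mitochondrially encoded genes was 0.26. The rank correlation with the ratio in cells was 0.93 for nuclear and 0.98 for mitochondrial members. Cox7a1 was highest there at 1.55, and Ndufa1 was next at 1.16. Cox7a1 had only 8.85 and 14.2 CPM in cells, and these barcodes held 1975193 UMIs in control and 3643329 in sonKD. Its value there thus rests on few UMIs. Several members that were below 0 in cells and in droplets were above 0 in these barcodes. Among them were Ndufv1, Ndufs8 and Uqcrfs1 at 0.11, 0.15 and 0.08, and Uqcrc1 and Cox4i1 at 0.11 and 0.10. Others stayed below 0, such as Ndufs1 at -0.18 and Sdhc at -0.49. Intervals of these ratios were not computed, so whether they differ from 0 beyond counting error was not tested.

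**Figure D5:**
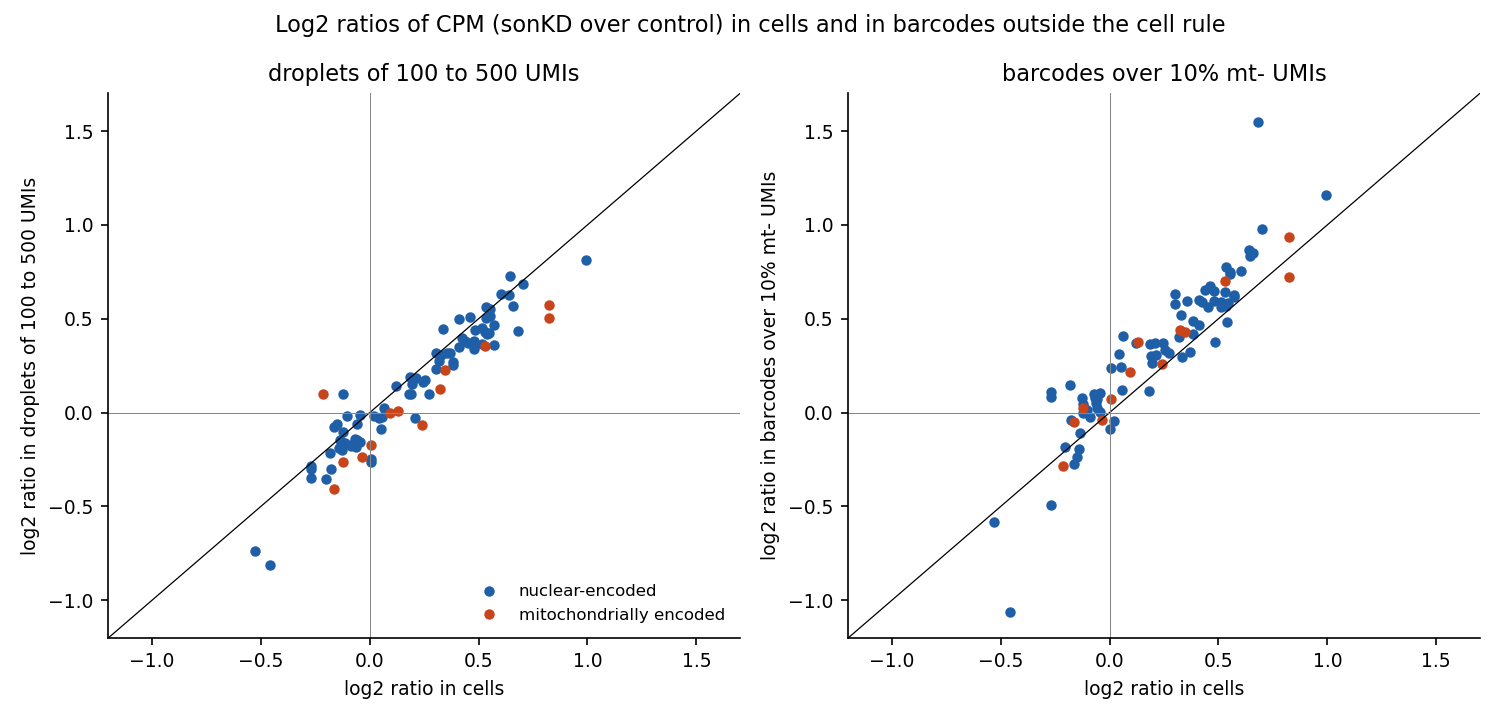
Log2 ratio of each member in cells (x axis) against its ratio in droplets of 100 to 500 UMIs (left) and in barcodes over 10% mt- UMIs (right), with the line of equal values. Nuclear members (blue) lie in much the same order in both, with rank correlations of 0.95 and 0.93, and mitochondrially encoded members (red) lie below the line in droplets, except mt-Nd6.

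The genes that build, supply and regulate the complexes did not share the members' median. Of 43 assembly factors at 10 CPM, 3 were higher (6.98%) and 0 lower past the fold, against 3.50% and 10.2% of all genes, with a median of -0.05. The copper chaperone gene Cox17 had 67.7 CPM in control and 113 CPM in sonKD (0.74) and the complex I assembly factor gene Ndufaf8 had 38.7 and 54.8 CPM (0.50), and both have short coding sequences of 189 and 222 nt. Uqcc1 and Surf1, which serve complexes III and IV, were lowest, at -0.23 and -0.21. The 17 genes for electron carriers and quinone synthesis included Cyc1 of complex III and had a median of -0.15. Of these, 0 were higher and 2 were lower (11.8%, near the 10.2% of all genes). Cycs, which encodes cytochrome c, had 65.5 and 41.1 CPM, a ratio of -0.67 (-0.77 to -0.57) with a coding length of only 315 nt, and the dihydroorotate dehydrogenase gene Dhodh was at -0.37. Coq4 and Coq2, of ubiquinone synthesis, were highest, at 0.12 and 0.10.

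The machinery of mitochondrial DNA and RNA had a median of -0.12 over 32 genes, with 2 higher (6.25%) and 3 lower (9.38%) past the fold. Slirp, which stabilises mitochondrial messages, had 92.8 and 137 CPM (0.56), and the single-strand DNA-binding protein gene Ssbp1 had 151 and 207 CPM (0.45). The DNA polymerase gene Polg was at -0.45 and Fastkd3 at -0.42. Of 11 regulators of respiratory genes at 10 CPM, 0 had a ratio above 0, and 3 were lower past the fold (27.3%, against 10.2% of all genes). Their median was -0.13, near that of all genes, of which 6039 of 8063 were below 0. Hcfc1 and Gabpa were lowest, at -0.46 and -0.35, and Yy1 and Myc were nearest to 0, at -0.06 and -0.05. Under TMM scaling Yy1 and Myc were above 0, at 0.03 and 0.04, and the other 9 were below 0.

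The 19 genes of pyruvate dehydrogenase and the citrate cycle had a median of -0.12, with 1 higher (5.26%) and 2 lower (10.5%) past the fold, the latter near the share of all genes. The NADP-dependent isocitrate dehydrogenase gene Idh2 had 111 CPM in control and 58.1 CPM in sonKD, a ratio of -0.94 (-1.01 to -0.86), and Idh3g was at -0.39. The fumarase gene Fh1 was at 0.38 and Idh3b at 0.21. The 15 genes of inner membrane transport and coupling had a median of -0.02, with 1 higher (6.67%) and 2 lower (13.3%). The prohibitin gene Phb had 125 and 202 CPM (0.70). The creatine kinase gene Ckmt1 was at -0.45 and the uncoupling protein gene Ucp2 at -0.37. The medians of these 6 lists ran from -0.15 to -0.02 (the assembly and transport lists lay above 0 under TMM scaling), against -0.12 for all genes and 0.23 for the nuclear members, and their median coding lengths ran from 693 to 1366.5 nt.

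Promoter windows of 300 bases, mostly upstream of the start (RefSeq, GRCm38.p6), were found for 67 members. They were searched on both strands for letters that known regulators of respiratory genes bind. The palindromic NRF1 motif was in 7.46% of the members' windows, 2.40% of those of all genes at 10 CPM and 0.971% of all promoters. The YY1 letters AAGATGGCG were in 8.96%, 4.25% and 1.40%, and the GABPA letters CCGGAAG in 23.9%, 22.9% and 8.86%. The oestrogen-related receptor letters TNAAGGTCA were in 4.48%, 0.572% and 1.28%, and the SP1 letters GGGCGG in 40.3%, 68.9% and 35.7%. Median ratios of tested members with and without each were 0.21 (5 members) and 0.26 for NRF1, 0.33 (16) and 0.21 for GABPA, 0.23 (6) and 0.26 for YY1, 0.41 (3) and 0.25 for the receptors, and 0.29 (26) and 0.24 for SP1. A match to these letters is a description of the window, not a site.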

How the data were processed

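The authors deposited raw UMI counts per gene and barcode for 2 samples, 1 control and 1 sonKD. Per the file headers and the submitters' processing notes these were made with Cell Ranger 7.1.0, and per the notes on mm10. The annotation, and whether intronic reads were counted, are not given in the sources used here, and the labels name 2 NextSeq models. The values were whole numbers and every barcode was listed, 71046373 UMIs in control and 60352438 in sonKD.

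Counts were summed over cells per library and scaled to CPM, and a count under 3 was set to 3 for ratios. Intervals are exact Poisson for sums, exact conditional binomial for ratios, exact binomial (Clopper-Pearson) for shares and a normal approximation on the log scale for differences between 2 log2 ratios. They cover counting error only. Scrublet (scanpy 1.11.5) called 0.0603% and 0.0366% of cells as doublets, too few to trust, so doublets were kept. Gene structures and positions are from GENCODE M21 on GRCm38, which holds 32235 of the 32285 identifiers and all 96 members. Per gene the leading protein-coding transcript was used, coding length leaves out the stop codon, and shared sequence counts runs of 31 bases in the last 300. Scaling alternatives used edgeR 4.0.16. The interval arithmetic was tested on simulated data.

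Genes named are all mt- and Sdh genes, the subunit c genes, the complex IV isoform sets, Ndufa4, the 3 highest, 3 lowest and 2 most counted nuclear members of complexes I, III, IV and V, and the 2 highest and 2 lowest of each list, of which 1 gene is not reported here. The lists were assembly factors, carriers and quinone synthesis, mitochondrial DNA and RNA machinery, regulators of respiratory genes, pyruvate dehydrogenase with the citrate cycle, and inner membrane transport and coupling. The members and lists were chosen with earlier results of these data known.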

Additional observations from a re-analysis of the deposited data

Results flagged for a closer look

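These values come from barcodes outside the cells compared above, and each was higher in sonKD than in control. Barcodes over 10% mt- UMIs made up 27.9% of the sonKD barcodes that met the depth limits, against 11.2% in control. In those barcodes, mitochondrially encoded transcripts took 17.9% of UMIs in sonKD and 15.1% in control. In droplets of 100 to 500 UMIs, nuclear-encoded members took 4.93% of UMIs in sonKD and 4.39% in control. The cause was not tested.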

How the results depend on the processing

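No paired analysis was possible because each group held 1 library, and for the same reason no replicate was left out. Of 159 alternative values of the 12 summary results, 104 stayed within the counting interval or 1.5 times a count and 55 moved, among them the complex II median, which changed sign. Of 91 members, 75 kept their sign in all 12 settings tried on single genes and 16 changed it. The 5000 to 15000 UMI window was chosen after seeing the data.

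The mitochondrially encoded sum and median, 0.133 and 0.129, were 0.11 and 0.095 with a limit of 5% mt- UMIs, 0.32 and 0.31 at 25% and 0.36 and 0.35 without a limit. They were 0.15 and 0.15 from 5000 UMIs, 0.14 and 0.14 as means per cell, and 0.18 and 0.17 in cells of 5000 to 15000 UMIs. The sum was 0.14 after thinning, and the median 0.18 for members of at least 50 CPM. The nuclear sum, 0.200, was 0.20 both without a limit (0.196) and as a mean per cell (0.195), 0.19 after thinning and 0.23 in the window, where the medians of complexes I and IV were 0.24 and 0.41. The difference per cell in mitochondrial share, 0.45 points, was 0.31 at 5%, 0.87 at 25%, 0.95 without a limit and 0.55 in the window.

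In the order mitochondrial sum and median, nuclear sum and median, the values were 0.22, 0.22, 0.29 and 0.32 with TMM, 0.22, 0.21, 0.29 and 0.31 with median-of-ratios factors, and 0.21, 0.20, 0.27 and 0.30 without mt- and ribosomal protein genes. In those scalings the nuclear medians of complexes I to V were 0.28, 0.039, 0.48, 0.47 and 0.28, then 0.28, 0.034, 0.48, 0.47 and 0.28, then 0.26, 0.023, 0.47, 0.45 and 0.27. Complex II was thus on the other side of 0 in all of them. Without a filter, the complex IV median was 0.35 and 4 nuclear members were lower past the fold. These 4 include Cox4i2 and Cox8c, and Cox8c had only 18 and 11 UMIs, a ratio of -0.36 (-1.59 to 0.80). At 1.5-fold, 7 were higher and 0 lower.

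Among the 16 members that changed sign were mt-Nd5, Uqcrc1, Uqcrc2, Ndufv2, Ndufa10, Ndufa13, Ndufb5, Ndufb9, Ndufb10 and Atp5f1, with reported ratios from -0.09 to 0.02. The others were mt-Nd2, mt-Atp6, mt-Nd4, mt-Nd6, Cox4i1 and Cox5a. Of these, mt-Nd2, mt-Atp6, mt-Nd4 and mt-Nd6 turned at a 25% limit (0.14, 0.088, 0.012 and 0.061) and without a limit (0.19, 0.14, 0.057 and 0.12). mt-Nd2, Cox4i1 and Cox5a turned with TMM (0.056, 0.018 and 0.028), median-of-ratios factors (0.051, 0.013 and 0.023) and without mt- and ribosomal protein genes (0.039, 0.0013 and 0.012). Why the mitochondrial values follow the limit on mt- UMIs was not tested beyond the values given. Depth did not allow a comparison of the 5 members under 10 CPM.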
